A study of Homo sapiens with 12 samples.

Results

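Trimethylation of lysine 9 of histone H3 (H3K9me3) was mapped by ChIP-seq in HCT116 cells before and after 24 hr without methionine. ChIP-seq is chromatin immunoprecipitation followed by sequencing, and HCT116 is an established human colorectal carcinoma line, here at passage 19. The members were the 4 H3K9me3 libraries among the 12 samples of the series, chosen by mark and condition: control A and B (0 hr, complete RPMI medium with fetal bovine serum) and restricted A and B (24 hr, cells washed and moved to methionine-free RPMI with the same serum). The other samples were H3K9me1 and input libraries. Because the control libraries analysed here are from 0 hr, an effect of restriction and one of time in culture cannot be told apart. The labels do not state whether A and B were separate cultures, and the spread between them, on which each p-value rests, may be technical. An exact permutation test of 2 against 2 libraries cannot give a two-sided p below 0.333.

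H3K9me3 is laid down by lysine methyltransferases of the SUV39H and SETDB1 families and is bound by HP1 proteins. It marks compact, silent chromatin: satellite repeats beside centromeres, the ends of chromosomes, transposable elements and arrays of KRAB zinc finger genes. The methyl groups come from S-adenosylmethionine, which cells make from methionine. A peak caller finds such a mark as broad stretches. The width of a peak, its pileup (mean read coverage) and the spacing of peaks therefore describe domains in complementary ways.

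On chromosomes 1 to 22 and X the control lists held 1372 (A) and 797 (B) peaks and the restricted lists 1880 (A) and 674 (B). The ChIP libraries held 33503018 to 35736289 reads and their inputs 23523460 to 27843707. List length thus differed more between the letters than between the conditions, and within a mark the letter also named the sequencing lane, so values are given by library throughout. Because the caller scaled each ChIP library to its smaller input, pileup is given per M, where M is 1000000 input reads. Build hg19 holds for all positions.

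Peaks were somewhat narrower in both restricted libraries, around the middle of the width spectrum. The median width was 712 bp in control A and 800 bp in control B, against 668 bp in restricted A and 685 bp in restricted B. Both restricted medians lay below both control medians (756 ± 62.2 against 676.5 ± 12.02 bp, mean ± SD, n = 2; exact permutation p = 0.333, two-sided). The share of peaks of at least 1 kb was 34.5% and 37.1% in the controls and 29.9% and 34.3% in the restricted libraries, again without overlap (35.8 ± 1.88% against 32.1 ± 3.06%, SD, n = 2; exact permutation p = 0.333). At the upper end the conditions met: the 90th percentile was 1867 and 2041 bp against 1688 and 1875 bp (exact permutation p = 0.667). The caller's smallest possible width, the estimated fragment length of 299 to 302 bp, accounted for 3.72% and 3.89% of peaks in the controls and 4.52% and 5.64% in the restricted libraries.

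The widths of the conditions were separated on the chromosome arms. Beyond 5 Mb of any centromere gap, the median width was 674.5 and 662.5 bp in the controls and 616 and 594 bp in the restricted libraries. Within 5 Mb of a gap the medians were 802 and 940 bp against 825.5 and 901 bp, so both restricted values lay between the controls. Whether arms and gap-near sequence differed in this respect was not tested. Among peaks with a −log10 q of at least 5 the medians were 1276 and 1298 bp against 659 and 1319 bp, and the conditions overlapped.

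Very wide peaks made up a small part of each list. Peaks of at least 5 kb numbered 24 and 20 in the controls, A then B, and 19 and 14 in the restricted libraries. In 3 libraries the widest peak was the same pericentromeric block of chromosome 17: it measured 17.01 kb in control A (chr17:22244836-22261844), 17.2 kb in control B (chr17:22244625-22261846) and 17.2 kb in restricted B (chr17:22244622-22261795). Restricted A had its widest peak, of 13.98 kb, at chr21:11059042-11073025 instead. Of the peaks of at least 5 kb, 22 of 24 in control A, 20 of 20 in control B and 14 of 14 in restricted B lay within 5 Mb of a gap, but 11 of 19 in restricted A.

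Pileup ran from 0.448 to 882 per M and did not separate the conditions. Its median was 0.714 (A) and 0.820 (B) per M for control and 0.686 (A) and 0.785 (B) for restricted cells (exact permutation p = 0.667). Each restricted library was slightly below the control of its letter, at 0.960 and 0.957 times the control value, whereas A and B of a condition differed more than that. The 90th percentile was 4.52, 9.95, 2.05 and 9.98 per M in the same order (exact permutation p = 1). Without control B the restricted median was higher by 0.0212 per M, and without restricted A by 0.0178. Either omission leaves the letters unequal between the conditions, so these 2 values mix letter and condition. The highest peaks were shared by letter: control A and restricted A peaked at chr7:61967191-61970632 and chr7:61967157-61970632, with 245 and 286 per M. Control B and restricted B peaked at chr1:121484091-121485446 and chr1:121484069-121485456, with 882 and 638. All lie beside a centromere, where the fold over the local background was 1.05 to 1.38.

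**Figure D1:**
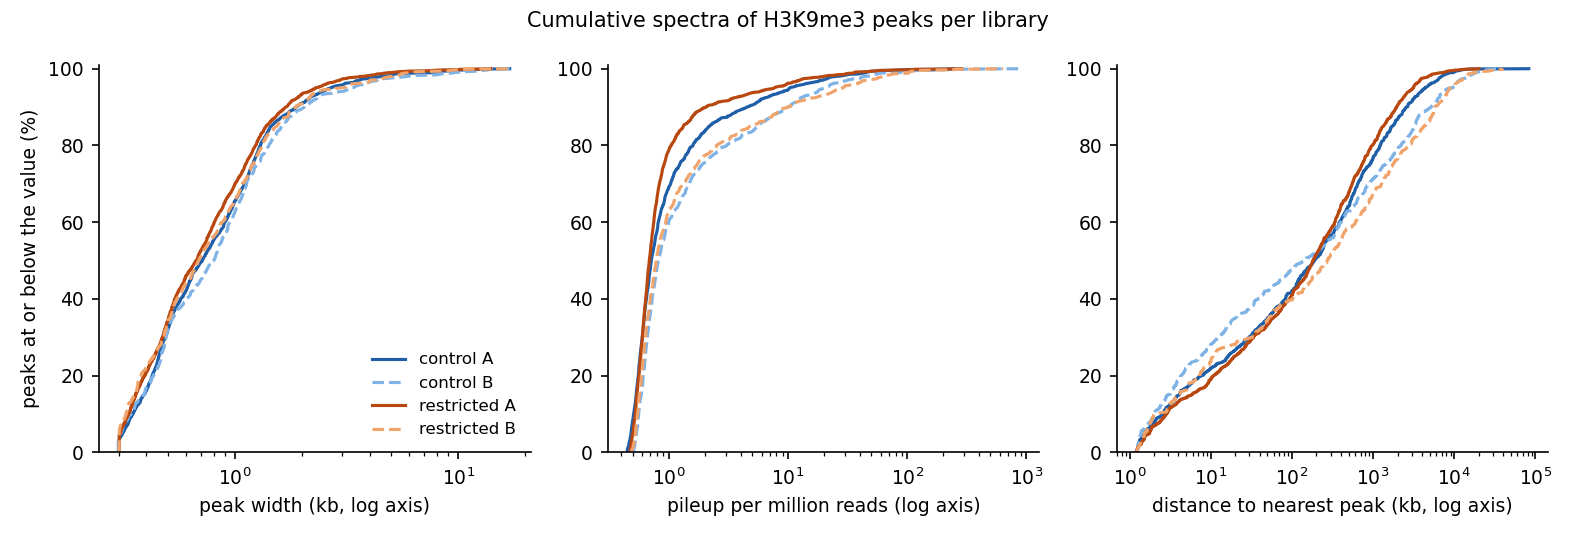
Cumulative share of H3K9me3 peaks (y axis, %) by peak width (kb), by pileup per M input reads (M, 1000000) and by distance to the nearest peak of the same library (kb), each on a log axis; blue lines are control and orange lines restricted libraries, solid for A and dashed for B. The width curve of control B lies furthest right at its median (800 bp), while in pileup the curves pair by letter.

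A smaller share of the H3K9me3 peaks lay in clusters in both restricted libraries. A cluster was a run of at least 3 peaks of 1 library with gaps of at most 10 kb. The controls had 41 and 31 clusters and the restricted libraries 37 and 18. Clustered peaks made up 13.8% and 18.3% of the control lists and 9.63% and 10.98% of the restricted lists. Both restricted shares lay below both controls (16.1 ± 3.16% against 10.3 ± 0.956%, SD, n = 2; exact permutation p = 0.333), with ratios of 0.695 within A and 0.599 within B. Of 8 width, pileup and spacing measures compared, 3 were separated in this way, and none could pass the threshold at this number of libraries. For any measure, full separation in either direction has a share of 0.333 among the relabellings of the libraries. The median width and the share of at least 1 kb also come from the same spectrum.

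The clustered share was also lower in both restricted libraries under the following splits and settings. Within 5 Mb of a centromere gap it was 29.96% and 35.8% in the controls and 24.2% and 24.5% in the restricted libraries. On the arms it was 5.88% and 4.30% against 3.74% and 1.75%. With each list cut to its 674 peaks of highest −log10 q, so that all had the same length, it was 16.02% and 19.6% against 11.6% and 10.98%. A gap of at most 5 kb gave 8.97% and 13.8% against 6.65% and 7.57%, and one of at most 50 kb 24.34% and 32.5% against 21.2% and 23.6%.

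**Figure D2:**
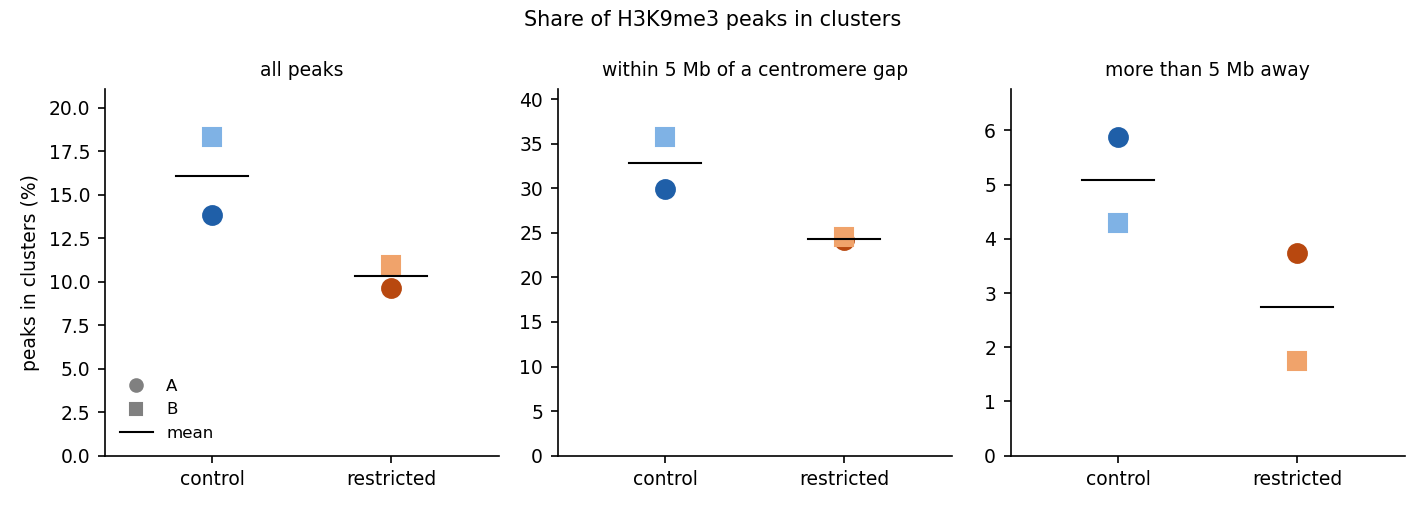
Share of H3K9me3 peaks that lie in clusters (y axis, %, from 0), for all peaks and for peaks within or beyond 5 Mb of a centromere gap; circles are A and squares B libraries, and the line is the mean of 2 libraries. Both restricted libraries lie below both controls in each panel, for all peaks at 9.63% and 10.98% against 13.8% and 18.3%.

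Distance to the nearest peak did not separate the conditions. Its median was 191 and 141.3 kb in the controls and 182 and 273 kb in the restricted libraries (exact permutation p = 0.667). Some 21.9% and 28.1% of control peaks and 19.2% and 23.4% of restricted peaks had a neighbour within 10 kb. Peaks within 5 Mb of a gap made up 33.1%, 44.5%, 28.8% and 40.5% of the lists in the usual order and went with the letter (exact permutation p = 0.667). Within each letter this share was lower after restriction, at 0.871 times the control value in A and 0.909 times in B. Without control B it was higher after restriction by 1.58 percentage points, and without restricted A by 1.69. The letters are then unequal between the conditions.

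Laid over one another, the clusters of the 4 libraries formed 57 loci, 39 of them within 5 Mb of a gap. At 17 of these (29.8%) each restricted library covered less than each control, and at 2 (3.51%) each covered more. The loci were drawn from clusters of these same libraries, held at 39 and 30 loci in the controls and at 36 and 17 in the restricted libraries. A locus could thus enter through a high control, and covered length was not scaled to the list. The 17 against 2 was not tested. Totalled over the loci, covered length was 457 and 398 kb in the controls and 397 and 258 kb in the restricted libraries. Both controls had a cluster at 23 loci and both restricted libraries at 8, of which 6 were clusters in all 4. At 16 loci both controls and 1 restricted library were clustered, the latter being restricted A at 12 and restricted B at 4. The reverse, with both restricted libraries and 1 control, occurred at 2.

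Among the largest of these arrays, the least covered library was restricted B at some and restricted A at others. The locus chr4:49093203-49158550, a satellite-bearing stretch beside the centromere of chromosome 4, had 44.03 and 37.97 kb under 12 and 15 peaks in control A and B. Restricted A had 22.5 kb under 13 peaks and restricted B 1.51 kb under 2 peaks, so both lay below the controls and restricted B held almost nothing. The locus chr10:42355260-42409499, likewise beside a centromere, covered 34.5 and 32.7 kb in the controls, 21.6 kb in restricted A and 11.8 kb in restricted B. It was a cluster in each library, with 8, 9, 7 and 5 peaks.

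On the X chromosome and chromosome 5 the low library was restricted A. At chrX:61682399-61744206 the covered length was 34.5 and 38.8 kb in the controls, 17.7 kb in restricted A and 36.3 kb in restricted B. At chr5:49405652-49441051 it was 14.1 and 13.8 kb, then 1.94 kb in restricted A and 8.53 kb in restricted B. At chr2:92281082-92325769 only restricted A stood apart, with 13.5 kb against 21.2 to 22.4 kb in the others.

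The low library also differed among the other loci beside centromeres, and the following were chosen after their values were seen. Restricted A was low at chr11:51568505-51591376, with 1.63 kb against 7.05 to 9.14 kb in the others, and at chr1:121351982-121370529, with 4.54 kb against 9.35 to 10.4 kb. At 5 loci clustered in both controls restricted B listed no peak. They include 3 arrays within 2 Mb of each other on the short arm of chromosome 2. There chr2:89865065-89880169 had 9.88 and 8.87 kb in the controls and 6.62 kb in restricted A, chr2:90372065-90393204 had 9.81, 5.43 and 7.68 kb, and chr2:91596814-91614886 had 6.05, 7.21 and 11.96 kb. The other two, chr4:49634487-49659890 and chr10:39101074-39138430, had 13.44 and 4.31 kb in restricted A. Restricted A thus had coverage at each of these 5 loci.

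Other large clusters followed neither condition. The array chr16:46386187-46408925 on the proximal long arm of chromosome 16 held 21.1 and 21.2 kb in the controls and 21.3 and 17.8 kb in the restricted libraries. On chromosome 21, chr21:10698794-10751312 ranged from 2.56 kb in control A to 9.92 kb in control B, with the restricted libraries at 4.96 and 5.57 kb. The neighbouring chr21:11025030-11097764 had 7.44 and 8.40 kb in the controls, 29.8 kb in restricted A and 4.14 kb in restricted B. Clusters on the long arm of chromosome 19 also varied by library: chr19:36761658-36800786 had 9, 4, 1 and 6 peaks in the usual order, and chr19:50595122-50639731 had 5, 0, 11 and 2.

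Most peaks of high pileup in a control were listed in the other control, and a smaller share of them in the restricted libraries. For recurrence, peaks of any library that lay within 1 kb of each other were joined into merged regions. A peak counted as listed in another library if that library had a peak in the same merged region, so the peaks need not overlap. Of peaks with a pileup of 5 to under 20 per M, 93.4% of the 91 in control A were also listed in control B, and 97.8% of the 90 in control B were listed in control A. For the same control A peaks the shares were 79.1% in the restricted A list and 62.6% in that of restricted B. For control B they were 80.0% and 56.7%. High pileup is not high enrichment here: 76 of the 91 control A peaks lay within 5 Mb of a centromere gap. At merged regions present in all 4 libraries, the median fold over local background was 1.77 to 1.85 near gaps. On the arms it was 2.90 to 3.44.

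Seen from the restricted libraries the picture was not symmetrical. Of the 80 peaks of this class in restricted A, 97.5% were listed in control A and 97.5% in control B, but 57.5% in restricted B. Of the 54 in restricted B, 94.4% and 92.6% were listed in the controls and 79.6% in restricted A. The peaks of this class in each restricted library were therefore nearly all listed in the controls, and the restricted libraries shared fewer of them with each other. Below 1 per M, where most of each list lay (60.2% to 78.7%), recurrence was 10.8% to 42.2% and was highest where the longer A lists were searched.

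**Figure D3:**
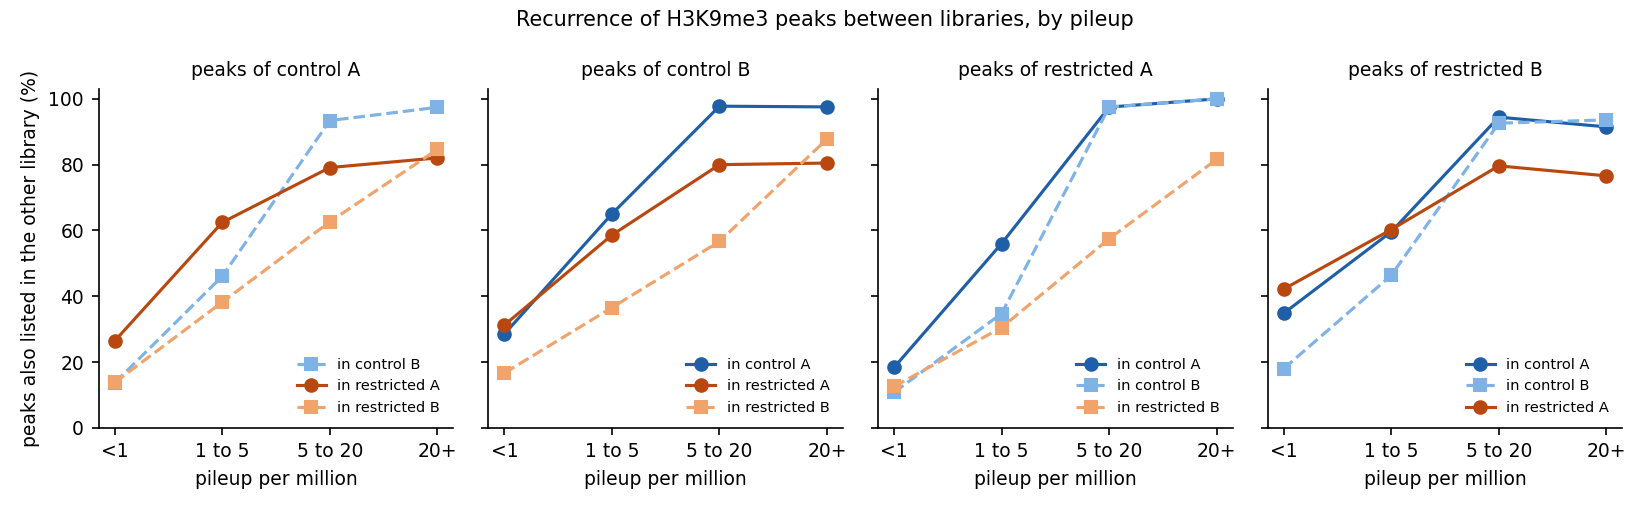
Share of the H3K9me3 peaks of each library (panels) that lie in a merged region with a peak of another library (y axis, %), in 4 classes of pileup per M input reads (x axis); colours and symbols name the library searched. At 5 to under 20 per M the controls found 92.6% to 97.8% of each other library's peaks, restricted A 79.1% to 80.0% and restricted B 56.7% to 62.6%.

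Regions present in both libraries of a condition gave the same asymmetry among sites of high pileup. Joining peaks that lay within 1 kb of each other, in any library, gave 3228 merged regions. Both controls listed 112 regions at 5 or more per M, 98 of them within 5 Mb of a gap. Of these 112, restricted A listed 90, restricted B 77, both 62 and neither 7. Both restricted libraries listed 62 such regions, of which 61 were in control A, 61 in control B and 1 in neither. These counts describe the lists: regions were chosen for presence in 1 condition, and the asymmetry was not tested.

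Few regions followed the condition in both libraries. There were 69 control-only regions (2.14% of the merged regions), listed in both controls and neither restricted library, and 79 restricted-only regions (2.45%). Single-library regions were far more numerous, at 684 and 307 for control A and B and 1172 and 224 for restricted A and B. The 2 sets differed in pileup: 25 of 69 control-only regions had at least 1 per M in both controls, against 8 of 79 restricted-only regions in both restricted libraries. Of all 363 regions listed in both controls, 138 had a lower value under 1 per M. Of all 326 listed in both restricted libraries, 186 did, so the lists differed in the same direction. Control-only regions lay within 5 Mb of a gap in 33.3% of cases and restricted-only regions in 20.3%. Among all regions listed in both libraries of a condition, 191 of 363 control and 140 of 326 restricted regions lay there. With −log10 q of at least 5 the counts were 18 and 5 of 279 regions, and with equal list lengths 54 and 39 of 1775. The larger count was then on the control-only side. It stayed on the restricted-only side with merging of overlapping peaks only (63 and 72 of 3285) and with merging within 10 kb (60 and 82 of 2772). The same held with at least 50% of a region covered (51 and 64 of 3228) and beyond 5 Mb of a gap (46 and 63 of 2319). Leaving out a library drops a requirement, so either count could then only stay or rise. Without restricted A the control-only count was 182, and without restricted B the restricted-only count was 1251. Without control A or B the control-only count was 376 or 753. Without control A or restricted A the restricted-only count was 159 or 303.

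By chromosome, the counts of the 2 kinds differed in either direction. Chromosome 19, rich in KRAB zinc finger genes, had the most merged regions, 258, of which 1 (0.388%) was control-only and 10 (3.88%) restricted-only. Of 150 regions on chromosome 16, 5 (3.33%) were control-only and 0 restricted-only. Chromosome 10 had 5 and 1 of 174 (2.87% and 0.575%) and chromosome 1 had 6 and 1 of 239 (2.51% and 0.418%). Chromosome 2 had 8 and 4 of 208 (3.85% and 1.92%) and chromosome 7 had 4 and 8 of 224 (1.79% and 3.57%). The X chromosome had neither kind among 28. Of all merged regions, 2.14% were control-only and 2.45% restricted-only. These chromosomes were picked out after their counts were seen, and no test was run on them.

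**Figure D4:**
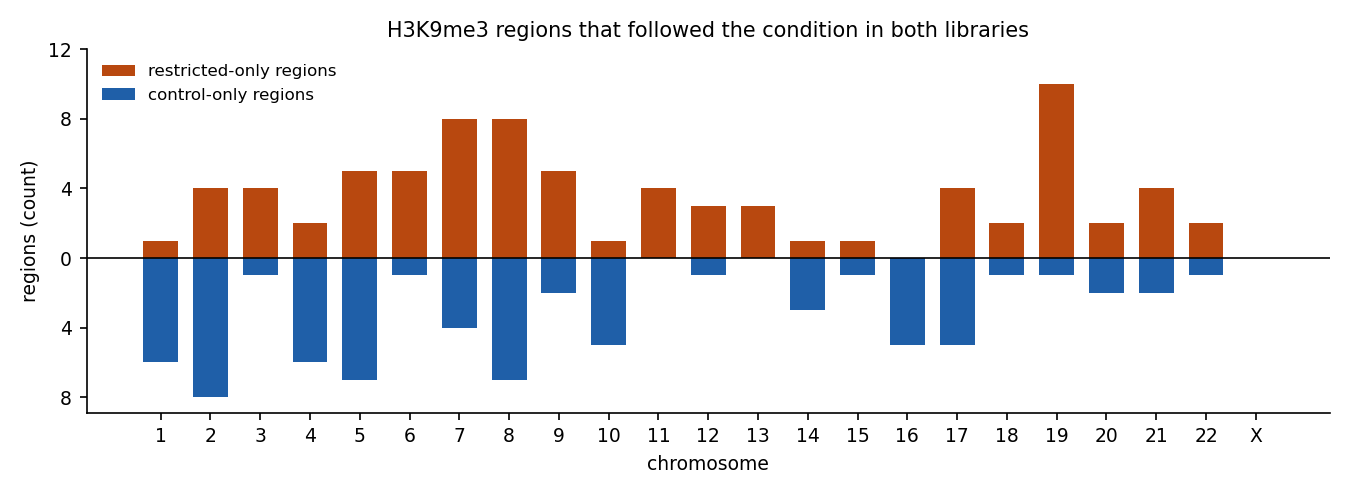
Number of H3K9me3 regions per chromosome listed in both restricted and no control library (orange, upward) and in both control and no restricted library (blue, downward). Chromosome 19 has 10 upward and 1 downward of 258 merged regions, and chromosome 16 has 0 upward and 5 downward of 150.

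Of the 8 control-only regions with the highest pileup, 7 lay within 5 Mb of a gap, as did 98 of all 112 regions at 5 or more per M in both controls. The fold over local background of these 8 was 1.39 to 2.00. The first was chr10:42536693-42537163, at 18.4 and 17.6 per M in control A and B. Next came chr20:29829323-29829823 with 16.2 and 17.7 and, on the arm of chromosome 2, chr2:109815759-109816306 with 14.2 and 17.1. Several sat inside the arrays above: chr10:42378334-42378748 (9.80 and 10.98 per M), chr4:49149182-49149648 (9.22 and 9.47), chr4:49114246-49114920 (5.39 and 6.48) and chr2:89865065-89865552 (3.62 and 4.06) were segments, unlisted after restriction, of loci that were clusters in both controls. The last, chr2:89852087-89853466, had 6.98 and 8.31. The controls lay close together at each of these regions.

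Restricted-only regions had lower pileup, and of the 8 with the highest pileup 4 lay within 5 Mb of a gap. These 8 reached down to 1.04 per M and the control-only 8 to 3.62, so their positions are not compared like for like. By fold over local background the order was not the same, at 1.62 to 19.9 for these 8 against 1.39 to 2.00 for the control-only 8. The strongest was chr22:18688079-18688650 in the low copy repeats of 22q11, at 8.31 per M in restricted A and 9.49 in restricted B. Its fold was 19.9 and 2.91 in these libraries, over a local background, computed from pileup and fold, of 0.378 and 3.24 per M. On chromosome 8, chr8:86814579-86816778 had 4.21 and 3.62 per M and chr8:2329122-2329594 had 2.07 and 1.44. The others, at 1.04 to 1.68 per M in each restricted library, were chr21:11147727-11149480, chr21:10137890-10141229, chr19:57454060-57454579, chr4:49335356-49336704 and chr6:169240369-169241379.

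The very high folds of restricted A went with a low local background. At chr8:43092672-43097292, listed in all 4 libraries, the fold was 1.54, 1.57, 16.1 and 1.73 in the usual order while the pileup was 52.8, 68.8, 29.5 and 58.6 per M. The implied background there was 35.8, 43.97, 1.80 and 36.2 per M, so restricted A had the lowest pileup and the highest fold. At chr22:18883564-18884304 the pileup was nearly level, at 21.9, 20.3, 20.9 and 24.6, and the fold was 2.07, 2.14, 10.0 and 2.39. Over the 63 arm regions present in all 4 libraries, the median implied background was 0.297, 0.262, 0.200 and 0.233 per M, and restricted A had the lowest value at 38. Over the 87 regions within 5 Mb of a gap the medians were 4.08, 4.10, 4.03 and 4.60, and restricted A was lowest at 20, so the low background of the named sites, which lie near gaps, was not general there. The part of this background in the number of peaks listed in restricted A was not tested.

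At the regions found in all 4 libraries, pileup differed in either direction, with more regions higher near centromere gaps and more lower on the arms. There were 150, with covered lengths totalling 384 and 363 kb in the controls and 346 and 322 kb in the restricted libraries. Covered length was lower in both restricted libraries at 21 (14%) and higher at 16 (10.7%). Within 5 Mb of a gap the split was 18 lower and 7 higher of 87 regions, and on the arms 3 lower and 9 higher of 63. For pileup per M, both restricted libraries lay above both controls at 28 regions (18.7%) and below at 30 (20%). Across all 150, limma called 0 (0%) at an adjusted p under 0.05, and 6 had an unadjusted p under 0.05, of which 5 were lower (smallest adjusted p 0.569). The median log2 difference was 0.01. Within 5 Mb of a gap the mean log2 pileup was higher after restriction at 57 of 87 regions and lower at 30 (median log2 difference 0.10), and on the arms it was higher at 20 of 63 and lower at 43 (median -0.08). With each library centred on its median, a split added after seeing the data, the numbers were 46 higher and 41 lower near gaps and 12 and 51 on the arms. Each pileup value is a mean over the length that the library listed in the region, and covered length split the other way by position. The part of unequal lengths in the pileup split was not tested, nor was the difference between the positions. Fits without restricted A or without restricted B called 15 and 8 regions, in which the lone restricted library is assumed to vary like the controls, whereas fits without a control called 0.

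**Figure D5:**
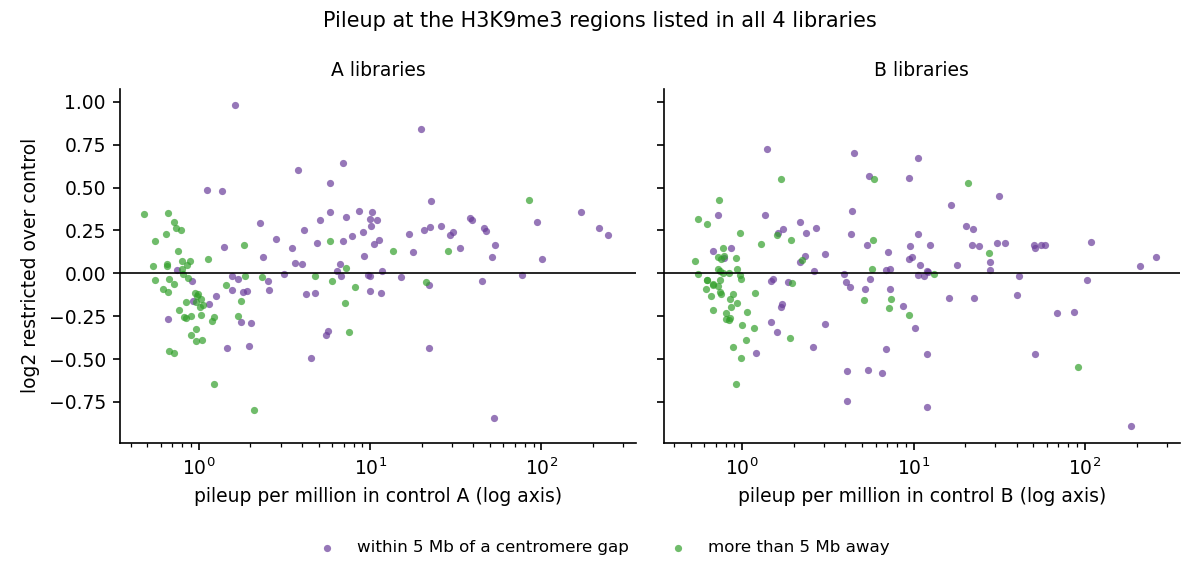
Log2 ratio of pileup per M in the restricted over the control library of the same letter (y axis) against pileup per M in that control (x axis, log), for the 150 H3K9me3 regions listed in all 4 libraries; purple points lie within 5 Mb of a centromere gap and green points further away. Points lie on both sides of 0 in both panels, and no region passed the limma test.

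Among regions with separated pileup, the X chromosome held 2 of the 5 with the largest positive difference. At chrX:61682342-61683569 the pileup was 5.84 and 5.50 per M in the controls and 8.43 and 8.16 in the restricted libraries (log2 difference 0.55, SE 0.12, limma adjusted p = 0.569). This segment belongs to the X array whose covered length was low in restricted A. There restricted A had a single peak of 0.302 kb, while control B had 1.22 kb and restricted B 1.17 kb. At chrX:58565964-58581831 the values were 6.91 and 7.13 against 10.8 and 7.78, but restricted A again listed 0.302 kb of the region, against 12.1 to 14.05 kb elsewhere, so its value is the mean over a much shorter stretch. The region chr18:18510904-18514196 had 19.8 and 22.01 against 35.5 and 24.7, with most of the difference in restricted A. The remaining pair were chr9:70076506-70076998, with 5.86 and 5.90 against 6.69 and 8.64, and chr16:35239430-35239924, with 29.3 and 31.5 against 34.3 and 43.2.

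On the lower side, weaker regions led. At chr20:3105005-3106650 the pileup was 1.23 and 0.881 per M in the controls and 0.783 and 0.655 in the restricted libraries (log2 difference -0.54, SE 0.20, limma adjusted p = 0.678). At chr3:156896256-156897508 it was 0.962 and 0.920 against 0.767 and 0.587, the controls agreeing closely. At chr21:10204102-10206880 it was 1.46 and 1.59 against 1.08 and 1.25, over unequal lengths of 2.78, 0.417, 0.393 and 1.73 kb in the usual order. The others were chr1:143283020-143284023, with 4.79 and 5.44 against 4.41 and 3.68, and chr5:177209268-177210582, with 1.05 and 0.843 against 0.803 and 0.704. None of these regions passed the test in either direction.

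Zinc finger gene windows, where H3K9me3 is known to cover the 3′ parts of KRAB zinc finger genes, varied more by library than by condition. Relative density is the covered share of a window divided by that of all chromosomes in the library. Over 21 windows set by hand it was higher in both restricted libraries at 6 (28.6%) and lower at 2 (9.52%). Of 11 zinc finger windows, 4 were higher and 1 lower. In covered kb, which is not scaled to the list, 2 of the 11 were higher and 1 lower.

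At 19q13.31 (chr19:44000001-45000000) peaks covered 2.51 and 0.679 kb in the controls and 5.97 and 3.75 kb in the restricted libraries, without overlap. At 7p22.1 (chr7:6000001-7000000) neither control had a peak, while restricted A had 4 peaks over 3.43 kb and restricted B 1 over 2.21 kb. The zinc finger window 5q35.3 (chr5:178000001-179000000) showed the reverse, with 3.75 and 1.12 kb in the controls and no peak after restriction. Each of these rests on few peaks.

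The relative density at 7q11.21 was 4.07 and 2.61 against 5.90 and 4.88, and that at 16p13.3 was 6.03 and 7.58 against 8.56 and 9.59. In covered kb neither was separated. The large chromosome 19 arrays overlapped between conditions: 19q13.4 held 27.3 and 9.52 kb against 26.4 and 12.4 kb, and 19q13.12 held 36.3 and 11.96 kb against 13.7 and 16.5 kb. The same held at 19p12, with 8.80 and 8.54 kb against 13.04 and 5.80 kb, and at 19p13.2, with 4.61 and 11.18 kb against 18.8 and 3.19 kb. At 12q24.33 the values were 2.70 and 0.773 kb against 4.59 and 1.17 kb, and 7q36.1 had at most 1 peak in any library.

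The D4Z4 macrosatellites, repeat arrays of chromosome ends whose silencing involves H3K9me3, did not separate either. The 4q35.2 window held 7 and 3 peaks over 7.30 and 2.22 kb in the controls, 12 peaks over 18.03 kb in restricted A and 1 peak over 1.27 kb in restricted B. The 10q26.3 window held 6.49 and 3.42 kb against 5.99 and 3.25 kb. The restricted libraries thus held both the highest and the lowest value at 4q35.2.

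Among duplicated sequence, 22q11 (chr22:16000001-26000000) had a relative density of 2.27 and 4.43 in the controls and 5.44 and 5.48 in the restricted libraries. The covered length there was 10.8 and 13.8 kb against 31.7 and 12.8 kb, so the separation depended on the scaling. The window 9p12-p11 was listed with a relative density of 0.525 and 0.499 against 0.680 and 0.597, from at most 4 peaks a library. The 9q12-q21 window overlapped, with 12.6 and 3.21 kb against 9.22 and 9.67 kb. The short arm and proximal long arm of chromosome 21 held 43.4 and 50.5 kb against 86.8 and 32.1 kb.

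HOX genes, which Polycomb complexes hold silent through another mark, and other clustered gene families carried few H3K9me3 peaks. The HOXD window and the olfactory receptor window at 11p15.4 had no peak in any library, and the HOXA window had 1 peak, in restricted A. The clustered protocadherin genes at 5q31.3 had 2 peaks in each library other than restricted B, which had none, and a relative density of 1.53 and 3.89 against 1.29 and 0. A window without a peak says only that none passed the caller's threshold at this depth.

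In 1 Mb bins, limma called 0 of 678 (0%) at an adjusted p under 0.05, with 62 at an unadjusted p under 0.05 and a smallest adjusted p of 0.493. The bins with the largest differences each rested on a few peaks. After 7p22.1, those higher in both restricted libraries were chr19:49000001-50000000 with 4 and 1 peaks (3.65 and 0.903 kb), chr13:57000001-58000000 with 4 and 2 (3.13 and 0.750 kb), chr17:3000001-4000000 with 3 and 1 (2.11 and 1.07 kb) and chr19:35000001-36000000 with 2 and 1 (2.28 and 0.847 kb), none of them with a control peak. Those with no peak after restriction were, beside 5q35.3, chr9:130000001-131000000 with 1 peak in each control (2.54 and 1.89 kb), chr14:31000001-32000000 with 2 and 1 (2.19 and 1.79 kb) and the terminal 0.355 Mb of chromosome 16 and 0.130 Mb of chromosome 21. The chromosome 16 end had 2 and 1 control peaks over 2.50 and 1.35 kb, and the chromosome 21 end had 1 in each over 1.501 and 0.423 kb. Without the filter on bins 2 of 1364 were called, and with bins of 5 Mb 1 of 436, all lower in the restricted libraries.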

How the data were processed

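Per the submitters' processing notes, reads were handled with Bowtie2 2.1.0, SAMtools 1.5 and MACS2 2.1.1.20160309 on hg19. Per the file headers, the authors called broad peaks for each library against its own input (equal in time and letter), with q cutoffs of 0.05 (strong) and 0.1 (weak), keeping duplicates. The authors deposited pileup as a signal of read coverage. Per the file headers, p and q are on a −log10 scale. Fold enrichment is, per the file headers, a ratio to local background. All are values of the authors' caller, averaged over a broad peak. The lowest implied background of any peak in a library, 2.63 to 3.11, equalled that expected from input depth, so ChIP coverage was scaled to the input.

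Peaks on chromosomes 1 to 22 and X were used, with centromere gaps set by hand in whole Mb. For single values, exact permutation tests (two-sided) ran over the 6 relabellings, with n = 2 libraries a condition. Pileup (log2) and bin density (log2 of density + 0.1, for bins listed in 2 or more libraries) went into limma 3.58.1 (trend, robust, Benjamini-Hochberg) in R 4.3.3. Other steps used Python 3.11.15, pandas 2.3.3 and numpy 2.4.6, tested on simulated data. Named were the widest and highest peak of each library, the 5 largest clusters of each, the 5 common regions and bins per direction with the largest separated difference, the 8 condition-only regions per direction with the highest pileup, and each window.

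Members, lists and tests were chosen with earlier results of these data known. The letters A and B coincide with lanes 3 and 2, per the file names in the headers. Deviations of same-letter libraries from their group means correlated at r = 0.10 over 678 bins and -0.016 over 150 regions, so the letter was not taken as a pairing. No hg19 annotation was used, so peaks are not assigned to genes, and no sequence is shown. Pileup limits the precision of weak peaks: the lowest listed values were 11.1 to 13.5 overlapping fragments.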

Additional observations from a re-analysis of the deposited data

Results flagged for a closer look

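Outside the chromosomes compared, restricted B listed 3 H3K9me3 peaks on the mitochondrial chromosome, which has no histones, over 6.65 kb and with a fold of up to 2.31. The other 3 libraries, including both controls, listed 0 there. These peaks drew attention as a signal in sequence that no comparison used. Since an absent peak says only that none passed the caller's threshold, no level of the other libraries there is known.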

How the results depend on the processing

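The alternatives were fixed with earlier results known, except the one without peaks at the fragment length and the region counts without single libraries, chosen after seeing the data. Median and 90th percentile of width, share of at least 1 kb, clustered share and nearest distance kept their direction in each alternative run. Within letters, however, the median nearest distance was 0.951 times the control value in A and 1.93 times in B. Without single libraries the clustered difference was -8.02 to -3.54 percentage points. The median pileup difference was -0.0845 to 0.0212 per M without single libraries. For the 90th percentile of pileup the difference was -5.19 to 2.75 (reversed without control B, 1.496, and without restricted A). With −log10 q of at least 5 that difference was 4.83. For the gap-near share the difference was -9.99 to 1.69 percentage points without single libraries. Fits without single libraries called 0 to 15 common regions and 0 bins; bins unfiltered or of 5 Mb gave 2 and 1. With the letter as a replicate block limma called 0 common regions (smallest adjusted p 0.0608, 10 with an unadjusted p under 0.05) and 0 bins (92 such), so the block changed no call. Control-only counts were 18 with −log10 q of at least 5 and 100 to 753 without single libraries; restricted-only counts were 5, 39 with equal list lengths, and 96 to 1251. The cause was not tested. Leaving out a library loosens what presence in a condition requires, and arms of 1 library are assumed to vary like the other. With 2 libraries a condition and weak peaks that seldom recurred, small differences were not detectable at this depth.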
